A study of Mus musculus with 2 samples.

Results

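The subject is a group of 10 mouse genes of glutathione-dependent and related detoxification, in the ventral prostate of mice that overexpress a microRNA. The group holds the glutathione peroxidases Gpx1, Gpx2 and Gpx3, the glutathione transferases Gsta3, Gsta4, Gstm1, Gstp1 and Gsto1, the glutathione synthesis gene Gclc and the quinone reductase gene Nqo1. They were chosen by name with earlier results of these arrays known, so their ratios are given as a description and no test stands behind them. Their 10 symbols matched 13 of the 41174 different probes of the array, which stand for 31993 gene names. Both transgenic and wild-type mice were FVB/N animals of 6 months (the strain tag spells it FBV/N). The transgenic RNA came from 6 ARR2PB-miR32 mice and the wild-type RNA from 6 mice without the transgene, with 1 pool per genotype. Each of 2 two-colour Agilent arrays carried both pools, the transgenic one in Cy3 on array 1 and in Cy5 on array 2. ARR2PB is a composite of the probasin promoter that is active in prostate epithelium under androgen, while the RNA came from whole tissue with its stroma and immune cells. The title and the tissue tag of both samples name the ventral lobe, but their growth text mentions ventral or dorsolateral glands, so the lobe rests on the tag. Pooled tissue cannot tell fewer cells of a type from less RNA per cell.

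Glutathione is a small thiol peptide that cells hold as a reserve of reducing power. Glutathione peroxidases spend it to turn hydrogen peroxide and lipid peroxides into harmless alcohols and water, and several of them carry selenocysteine in the active site. Glutathione transferases attach it to electrophiles such as drug metabolites and aldehydes from oxidised lipids. Many of these genes are switched on by the transcription factor NRF2 (gene Nfe2l2) through a short DNA motif, the antioxidant response element. In the human prostate, GSTP1 is known as a gene whose promoter is often methylated in cancer.

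The transgene expresses miR-32, and its mature sequence is shown because it is the agent that separates the pools. It is given beside a relative of the same seed, from RefSeq on GRCm38.p6, and capitals mark the seed, bases 2 to 8, by which a microRNA finds its targets.
mmu-miR-32-5p: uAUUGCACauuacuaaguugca
mmu-miR-92a-3p: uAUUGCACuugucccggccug
RefSeq's table lists 6 differently named mature mouse microRNAs with this seed. The array does not measure the mature microRNA, so the level of the transgene product was not checked here.

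The promoters of Gpx2 and Gsta3 are shown because these were the members with lower signal in the transgenic pool. Each sequence is the 250 bases before the gene start in RefSeq's table for GRCm38.p6, read 5′ to 3′ along the gene, at chr12:76795555-76795804 on the minus strand for Gpx2 and at chr1:21240335-21240584 on the plus strand for Gsta3. Capitals mark a match to the core of the antioxidant response element, TGACNNNGC or its complement GCNNNGTCA.
Gpx2: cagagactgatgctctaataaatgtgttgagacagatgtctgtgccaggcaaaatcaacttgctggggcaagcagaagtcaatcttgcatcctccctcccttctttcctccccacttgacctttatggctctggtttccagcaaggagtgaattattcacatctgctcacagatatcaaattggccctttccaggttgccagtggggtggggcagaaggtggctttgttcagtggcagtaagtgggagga
Gsta3: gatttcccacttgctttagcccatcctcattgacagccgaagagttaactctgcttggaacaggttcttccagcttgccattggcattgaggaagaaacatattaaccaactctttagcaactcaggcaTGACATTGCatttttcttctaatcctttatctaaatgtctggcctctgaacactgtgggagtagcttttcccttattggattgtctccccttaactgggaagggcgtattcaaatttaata
The Gsta3 window held 1 match, TGACATTGC, starting 121 bases before the gene start. Of the 8 members with a promoter in the table, Gsta3 was the only one with a match, and 10.2% of all 32851 windows of this length held one. Windows for Gsta4 and Gclc were not used here. A match is a string of letters and not a tested binding site.

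Values below are log2 ratios of transgenic over wild type after background correction and loess within each array. The mean of both arrays is given with their SD (n = 2). These are technical arrays of the same pools, so the SD says nothing of how mice differ. Signals are in arbitrary units after normalization and can be compared between pools for one probe, not between probes. A gene was called lower or higher where its mean ratio was at least 1 in size and both arrays, each taken alone, differed 1.5-fold or more the same way. Of the 10 members 9 were detected, meaning well above background on both arrays in at least 1 pool, and each of these was well above background in both pools. By this rule 2 members were lower, beside 3.53% of the 13902 detected genes, and 0 were higher, beside 1.09%. The members were chosen with these ratios known, so nothing is read from the difference between those shares. The median of the 9 detected members was 0.054, and the median of all detected genes was 0.011.

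Gpx2 had the lowest ratio of the members. It encodes the selenium-dependent peroxidase best known from intestinal epithelium. Its signals were 450.5 on array 1 and 324 on array 2 in the transgenic pool, against 1791 and 2945 in the wild-type pool. Every transgenic signal of Gpx2 lay below every wild-type signal. The log2 ratio of Gpx2 was -1.99 on array 1 and -3.19 on array 2, with a mean of -2.59 ± 0.85 (SD, n = 2), or 6.02-fold lower. Feature Extraction's own ratios were -2.83 and -3.27. The arrays differed by 1.20 for Gpx2, and 5.42% of detected genes had arrays that differed by as much or more.

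The scanner readings of the single Gpx2 spot showed the same order within each dye. In Cy3 the spot read 616 in the transgenic pool over a local background of 23, against 5285 in the wild-type pool over 22. In Cy5 it read 248 in the transgenic pool over a background of 116, against 1149.5 in the wild-type pool over 108.

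Gsta3, an alpha-class transferase that in the mouse is known for conjugating activated aflatoxin, was lower as well and had 2 probes. Its brighter probe gave 1043 and 978 in the transgenic pool, against 1997 and 2510.4 in the wild-type pool. Its log2 ratio was -0.94 on array 1 and -1.36 on array 2, a mean of -1.15 ± 0.30 (SD, n = 2), or 2.22-fold lower. This mean lies just inside the threshold of the rule. The call was lost on array 1 alone, where the ratio was -0.94, under median centring in place of loess at -1.06, where array 1 was at 0.18, and with the mean of both probes at -0.98.

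The dimmer probe of Gsta3 gave 391 and 249 in the transgenic pool, against 401 and 744 in the wild-type pool. On array 1 the pools were almost equal by this probe, at a ratio of -0.038, and on array 2 the ratio was -1.58, for a mean of -0.81 ± 1.09. Feature Extraction's own ratios for the same spot were -1.11 and -1.5. Probe sequences were not used here, so signal shared with other alpha-class genes was not checked.

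**Figure D1:**
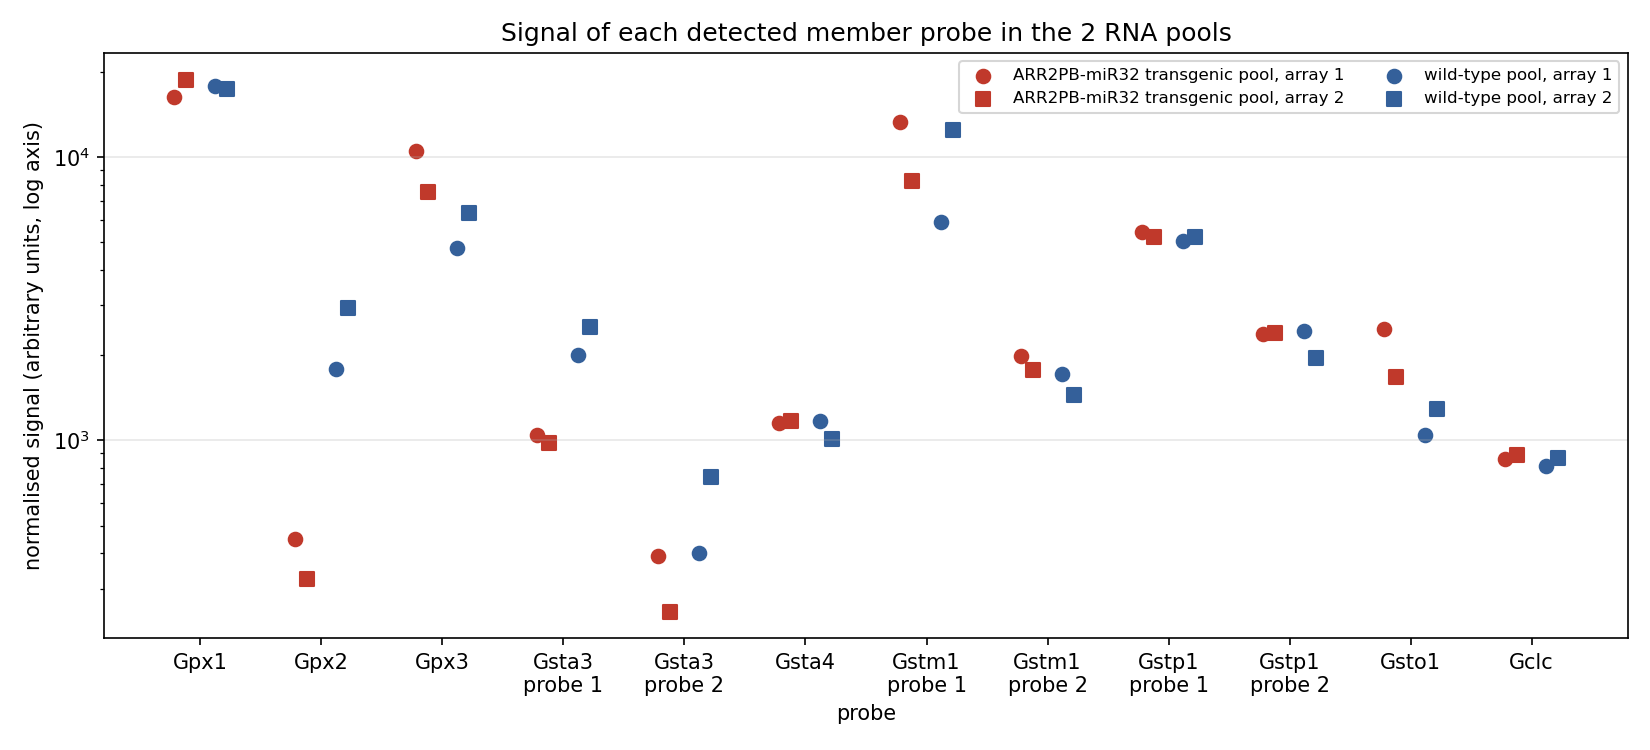
Normalised signal (arbitrary units, log axis) of the 12 detected probes of 9 genes, transgenic pool in red to the left of the wild-type pool in blue. Circles are array 1 and squares array 2, and where a gene has 2 probes the brighter is probe 1. For Gpx2 both red points (450.5 and 324) lie below both blue points (1791 and 2945), while for Gclc the colours overlap.

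The other peroxidases of the group did not pass the rule. Gpx1, the abundant cytosolic selenoenzyme, had signals of 16306 and 18762 in the transgenic pool, against 17844 and 17380.4 in the wild-type pool. The pools overlapped, and the mean log2 ratio was -0.0099 ± 0.17 (SD, n = 2). Gpx3, the secreted plasma form made chiefly by the kidney, had 10472 and 7508 in the transgenic pool, against 4769 and 6365 in the wild-type pool. Both transgenic signals of Gpx3 were above both wild-type signals, with ratios of 1.13 and 0.24 and a mean of 0.69 ± 0.63. After loess, array 1 alone would have passed a 2-fold difference and array 2 alone would not. By Feature Extraction's own ratios of 0.45 on array 1 and 0.62 on array 2, neither array reached 2-fold.

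Among the transferases, Gsto1 had the highest mean ratio without passing. It is the omega-class enzyme, known for reducing dehydroascorbate and removing glutathione from proteins. Its signals were 2479 and 1673 in the transgenic pool, against 1048 and 1290.4 in the wild-type pool. These groups did not overlap, and the ratios of 1.24 and 0.37 gave a mean of 0.81 ± 0.61 (SD, n = 2), or 1.75-fold.

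Gstm1, a mu-class transferase, was the member on which the arrays disagreed most after loess. Its brighter probe had 13258 and 8233 in the transgenic pool, against 5893 and 12502 in the wild-type pool. The ratio was 1.17 on array 1 and -0.60 on array 2, and 1.19% of detected genes had arrays that differed by at least this much. The mean was 0.28 ± 1.25, and its sign was not settled, since the series' value table gave -0.034. By Feature Extraction's own ratios for this spot the arrays were closer together, at 0.30 on array 1 and -0.24 on array 2. The other Gstm1 probe was steadier, at 1988 and 1779 in the transgenic pool against 1718 and 1450.04 in the wild-type pool, with a mean of 0.25 ± 0.06.

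Gsta4 and Gstp1 differed little between the pools. Gsta4, which removes hydroxyalkenals formed from oxidised lipids, was printed as 10 spots, of which 8 on array 1 and 9 on array 2 were kept. Its signals were 1151.5 and 1168 in the transgenic pool and 1173 and 1016 in the wild-type pool. The spot ratios ran from -0.19 to 0.23 with a median of -0.026 on array 1, and from -0.066 to 0.35 with a median of 0.25 on array 2. The SD between spots was 0.15 on each array, below the median SD of 0.26 and 0.19 over the 129 detected probes that were printed as 10 spots. The mean ratio of Gsta4 was 0.087 ± 0.16 (SD, n = 2).

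Gstp1, the pi-class transferase, had 5427 and 5221 in the transgenic pool and 5069 and 5219.9 in the wild-type pool by its brighter probe. The transgenic signals were the higher ones, but the nearest pair, 5221 and 5219.9, was almost equal. The mean ratio was 0.049 ± 0.07, and the other probe gave 0.13 ± 0.24. Both means are smaller than the SD between the arrays, and Gstp1 has near-identical neighbours in its gene cluster.

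Gclc encodes the catalytic subunit of glutamate-cysteine ligase, the limiting enzyme of glutathione synthesis. Its signals were 857 and 890.2 in the transgenic pool and 815 and 869 in the wild-type pool. The arrays agreed within 0.038, and the mean ratio of 0.054 ± 0.027 was 1.04-fold.

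Nqo1, a quinone reductase and a standard readout of NRF2 activity, gave no ratio. Its only spot was marked as non-uniform in Cy3 on array 1, where that channel read 440.5 for the transgenic pool. On array 2 the spot read 124.5 over a background of 120.5 in the transgenic pool, which was not well above background, and 44.5 over 27 in the wild-type pool, which was. On array 2 alone the loess ratio was -0.070, while Feature Extraction's ratio was 2.27, so the direction for Nqo1 depended on how this near-background spot was treated.

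Because each pool was measured once in each dye, the pools can also be compared within one dye across the arrays. In such a ratio a probe's own dye bias cancels by construction, while a difference between the arrays in the size of a spot enters the Cy3 and the Cy5 ratio with opposite signs. This comparison was added after the values were seen, and it used scanner signals less local background, centred on the median of probes above background in both pools. Over 11995 genes above background in both pools, the Cy3 and Cy5 ratios correlated at r = 0.75 and differed by a median of 0.21, while the loess ratios of array 1 and array 2 correlated at r = 0.39 and differed by a median of 0.35. Genes are not independent replicates, and both pairs of ratios come from the same 4 readings of each spot, so closer ratios are not added measurements. The pairs also differ in background correction and normalization, and the part of the arrangement alone was not tested.

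Like genes above background in both pools as a whole, most member probes had closer ratios in this arrangement. For 10 of the 12 detected member probes the Cy3 and Cy5 ratios lay closer together than the loess ratios of the arrays. The share of all detected probes for which this held was not computed, so nothing particular to the members is read from it. Gpx2 was at -2.83 in Cy3 and -2.98 in Cy5, a mean of -2.91 ± 0.10 (SD, n = 2). Gsta3 was at -1.29 and -1.09 by its brighter probe, and at -1.08 and -1.11 by the dimmer one. Both Gsta3 probes were about equally lower in this arrangement. They were also alike by Feature Extraction's ratios, which compare the dyes within each array, with means of -1.22 and -1.31.

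Gpx3 (0.87 and 0.75) and Gsto1 (0.97 and 0.78) were higher in both dyes and stayed below the mean of 1 that the rule asks for. The brighter Gstm1 probe gave 0.27 and 0.59, so the opposite signs of its loess ratios were not seen here. Gpx1, Gsta4 and Gstp1 by its brighter probe lay between 0.020 and 0.20 in either dye. Gclc was at -0.052 in Cy3 and 0.15 in Cy5.

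**Figure D2:**
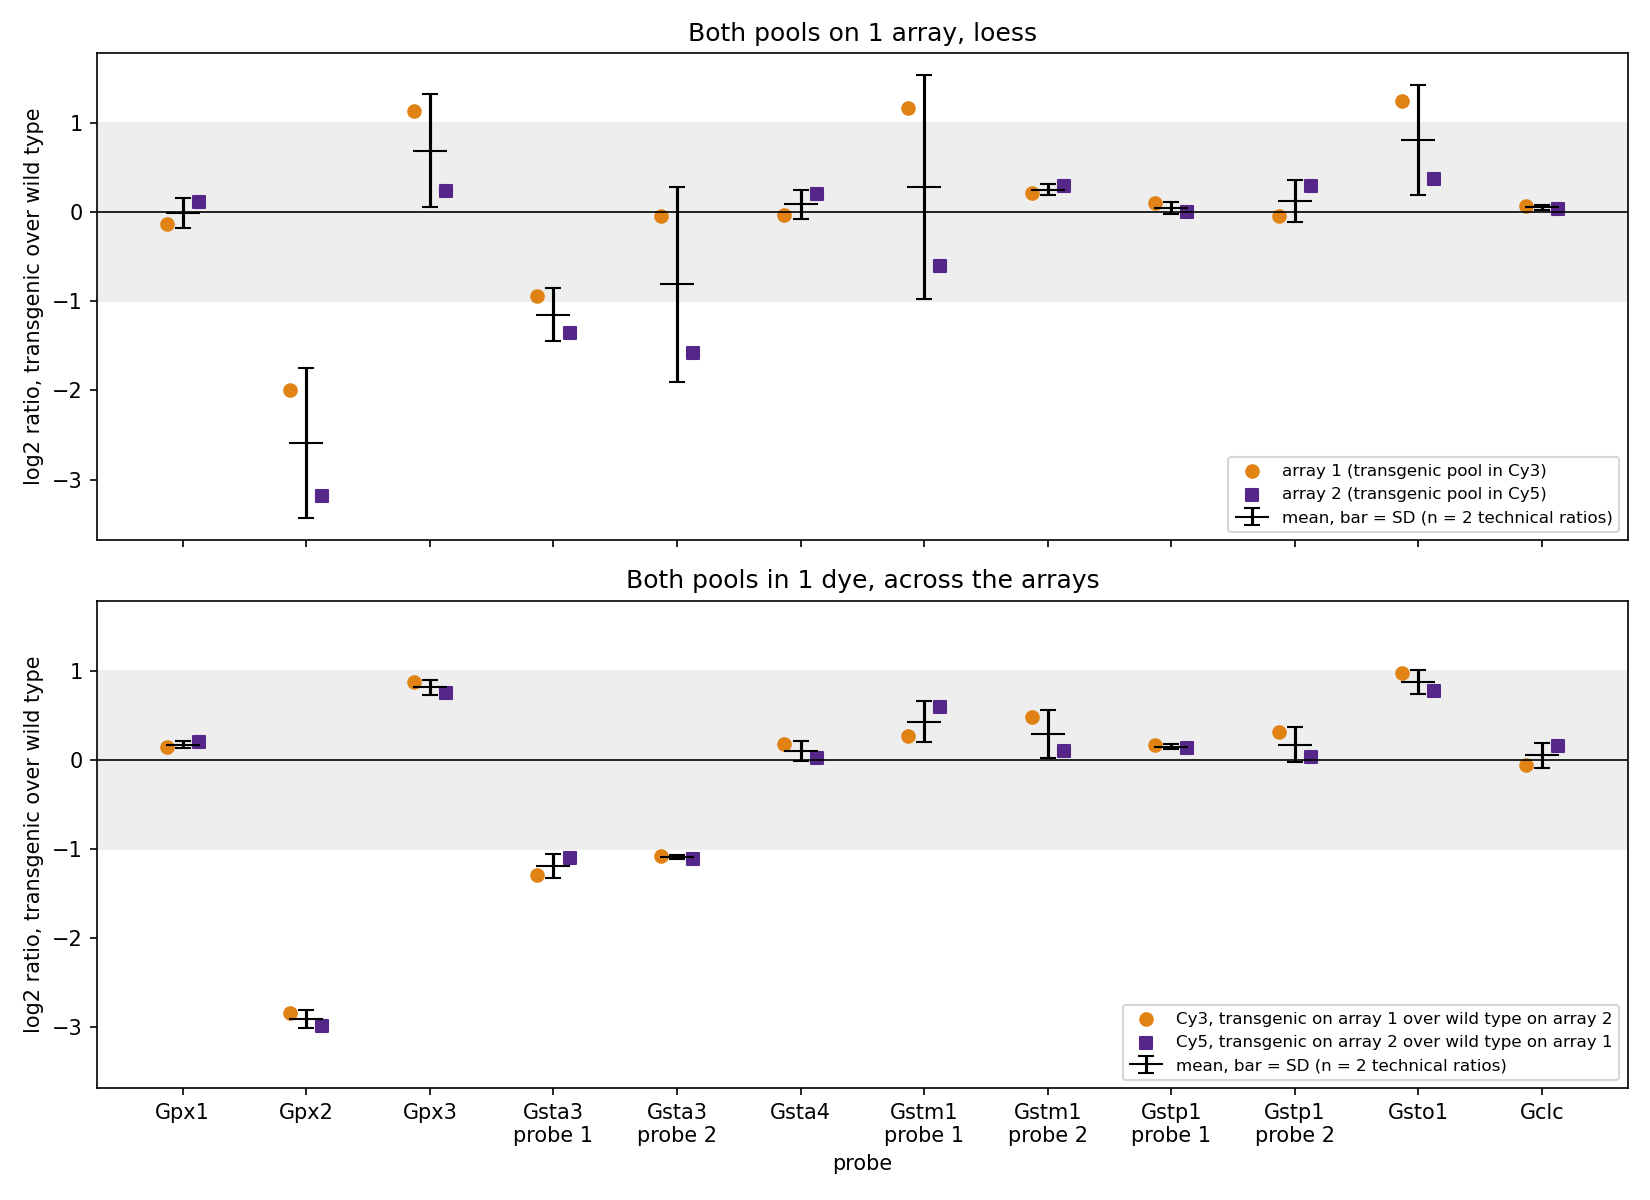
Log2 ratio of transgenic over wild type for the 12 detected member probes, with both pools on 1 array after loess (upper panel) and with both pools in 1 dye across the arrays (lower panel). Orange circles and purple squares are the 2 ratios, black bars are their mean with the SD (n = 2 technical ratios), and the grey band spans -1 to 1. Gpx2 and both Gsta3 probes lie below the band in the lower panel, and the ratios of Gpx3, Gsto1 and Gstm1 probe 1 lie closer together there than in the upper panel.

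The rest of the pathway was followed in 7 lists of genes, chosen with earlier results of these data known. Leaving out the sources of superoxide, 88 of 102 genes on the array were detected, and 0 were higher and 0 lower by the rule, with a median of 0.047. Of these 88 genes, 25 were above 0 and 23 below 0 on both arrays, beside 24.6% and 27.3% of all detected genes.

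Of the other peroxidases, 3 were detected and 0 passed. Gpx4, which protects membranes by reducing lipid peroxides and stops ferroptosis, was at 0.29 ± 0.07 (SD, n = 2), and Gpx8 of the endoplasmic reticulum was at -0.60 ± 0.31. Of 13 detected further transferases 0 passed, 7 were above 0 on both arrays and 2 below, and the median was 0.30. The highest was the membrane-bound Mgst3 at 0.88 ± 0.23 and the lowest the theta-class Gstt3 at -0.71 ± 0.45. Gsta1, another alpha-class gene beside Gsta4, was named after its value was seen and stood at -0.17 ± 0.13, near background in the transgenic pool.

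Genes that make, recycle or move glutathione had a median of -0.12, with 0 of 21 past the rule. Gss, which completes glutathione synthesis, was highest at 0.57 ± 0.06, and Ggt6, of the gamma-glutamyltransferase family, lowest at -0.62 ± 0.06. Gclm, the regulatory partner of Gclc, was at -0.12 ± 0.05 and glutathione reductase (Gsr) at 0.28 ± 0.07. These were named after their values were seen.

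The list of NRF2 regulators and targets had 0 of 25 detected genes past the rule and a median of -0.027. The highest was the pentose phosphate enzyme Tkt at 0.37 ± 0.42 and the lowest the haem oxygenase Hmox1 at -0.84 ± 0.21. Nfe2l2 itself was at -0.31 ± 0.14 and its inhibitor Keap1 at -0.16 ± 0.34, both named after their values were seen. Among other enzymes that remove peroxide or superoxide, or repair oxidised methionine, 0 of 15 passed and the median was 0.12. It ran from the peroxiredoxin Prdx4 of the endoplasmic reticulum at -0.83 ± 0.11 to the methionine sulfoxide reductase Msrb2 at 0.72 ± 0.14. Genes for making selenoproteins bear on Gpx1, Gpx2 and Gpx3, which carry selenocysteine. Of these and other selenoproteins 0 of 11 passed, between Selenof at -0.28 ± 0.09 and Pstk, a kinase of selenocysteine synthesis, at 0.47 ± 0.13.

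The one list with called genes was that of enzymes that produce superoxide and peroxide, with a median of -1.16 over 7 detected genes. By the rule 5 were lower, beside 3.53% of all detected genes, and 0 were higher, beside 1.09%. All 7 were below 0 on both arrays, beside 27.3%. Of these 7 genes 4 were detected only through the wild-type pool, including 2 of the lower ones. The 3 above background in both pools, Noxo1, Ncf4 and Cyba, were all lower, beside 267 of the 12012 genes detected in both pools. Noxo1, the organiser subunit of the epithelial oxidase NOX1, had signals of 380.2 and 351 in the transgenic pool, against 1958 and 2082 in the wild-type pool. Its log2 ratio was -2.47 ± 0.14 (SD, n = 2), or 5.53-fold lower. The gene of the catalytic subunit, Nox1, was well above background in neither pool.

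Ncf4, Cyba and Cybb, also called lower, encode subunits of the phagocyte oxidase. Ncf4 was at -2.01 ± 0.01, Cyba at -1.46 ± 0.49 and Cybb at -1.16 ± 0.49. In the transgenic pool Cybb was well above background on array 1 and not on array 2. Cyba did not pass under median centring (-1.45), and Cybb did not without background subtraction (-0.85) or on array 1 alone (-0.81). The size for Cybb depended on the background treatment in the other direction too, at -2.69 with Feature Extraction's ratios and -1.99 with a normexp offset of 10.

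**Figure D3:**
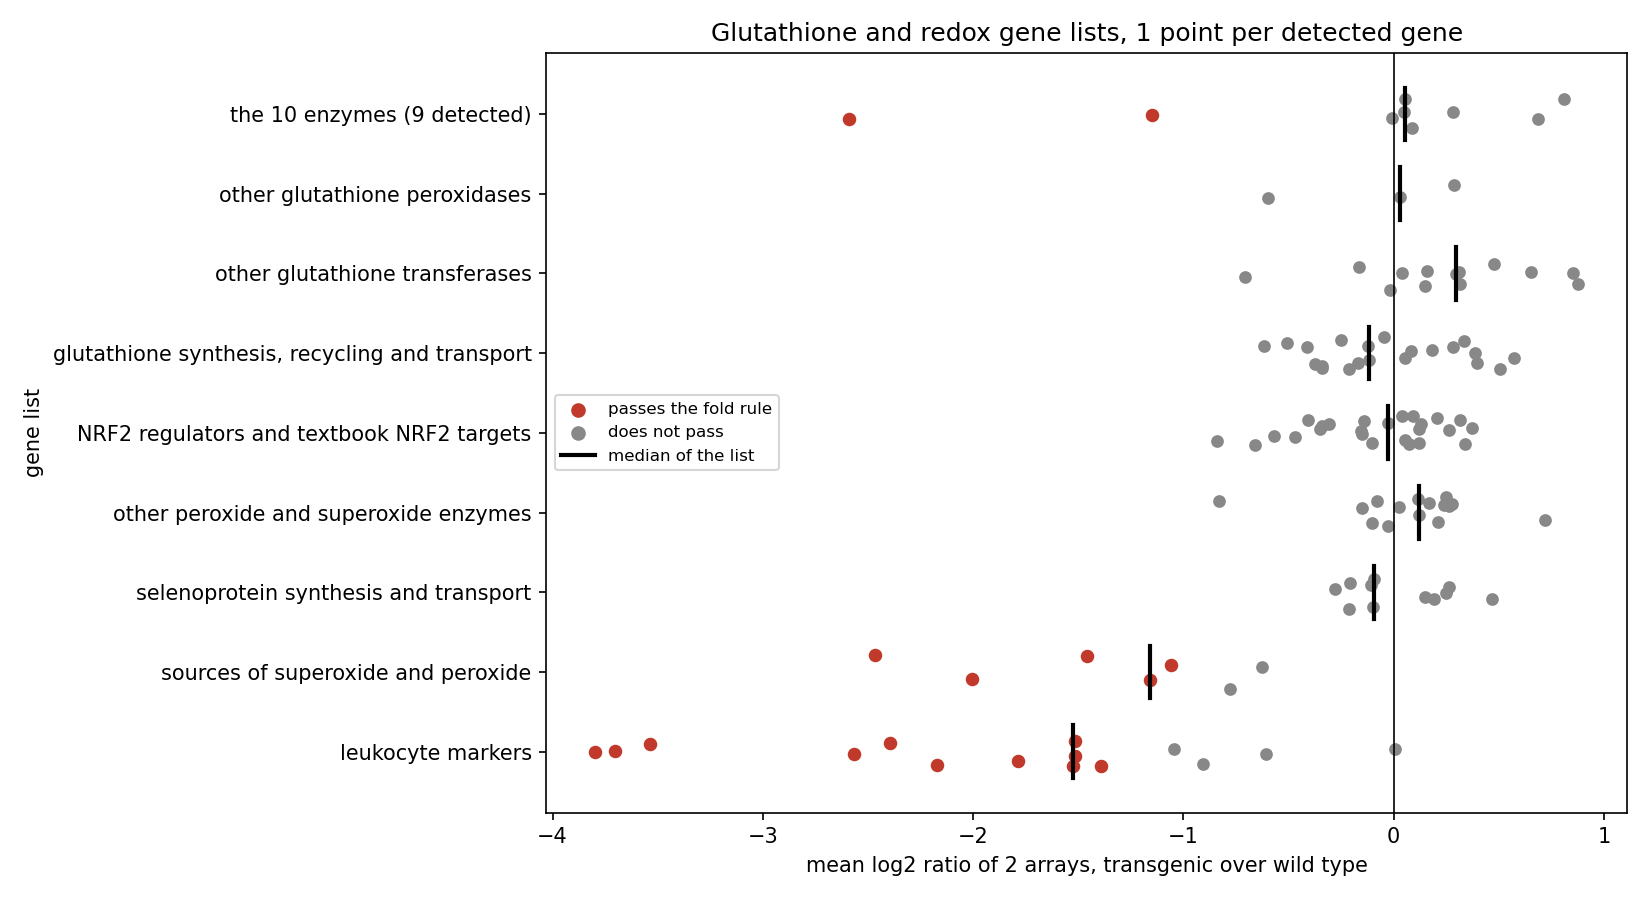
Mean log2 ratio of transgenic over wild type (x axis) for each detected gene of the 10 enzymes, the 7 pathway lists and the leukocyte markers (y axis). Each point is a gene, red where it passes the fold rule and grey where it does not, and a black line marks the median of a list. Red points are seen among the 10 enzymes, where they are Gpx2 and Gsta3, among the sources of superoxide and among the leukocyte markers.

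Markers of cell types were compared between the pools as well, and the lists differed in direction. Of 15 detected leukocyte markers 11 were lower, beside 3.53% of all detected genes, and 0 were higher, beside 1.09%. Their median was -1.52. Of these 15 markers 7 were detected only through the wild-type pool, including 5 of the 11 lower ones, so they entered because they were high there. Of the 8 markers above background in both pools, 6 were lower, beside 267 of the 12012 genes detected in both pools. The median of these 8 was -1.65. The leukocyte marker Itgam was not detected. Luminal epithelium markers were all detected, 12 of 12, with 0 past the rule and a median of 0.092, and basal markers had a median of -0.43 over 7 genes with 0 past the rule. Among proximal epithelium markers, Clu and Ppp1r1b were higher and Ly6d was lower. In the stroma list, Lum and Col3a1 were lower out of 11, beside 3.53% of all detected genes, with a median of -0.65. The part of these cell types in the ratios of Gpx2, Gsta3 and the oxidase genes was not tested.

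Other lists bear on the tissue label or on where a member is usually made. Of 10 secretory products typical of the seminal vesicle or of prostate lobes other than the ventral one, 7 were not detected, among them every listed gene of the Svs family. The 3 detected ones all passed the rule, beside 3.53% lower and 1.09% higher among all detected genes. Tgm4, a transglutaminase of the dorsal and anterior lobes, was at 2.12 ± 0.14 and Sval1 at 2.43 ± 0.20, while Ceacam10 was at -2.60 ± 0.36. Sval1 was detected only through the transgenic pool, so it entered because it was high there. Tgm4 gave 799 and 633 in the transgenic pool, against 171 and 156 in the wild-type pool. Whether the pools differed in their content of other lobes was not tested. Red blood cells hold much Gpx1, and 3 detected markers of theirs had a median of -0.23 with 0 past the rule. For Gpx2, 3 of 5 detected goblet and intestinal markers (Tff3, Clca1 and Fcgbp) were higher, beside 1.09% of all detected genes. Muc2, Cdx2 and Vil1 were not detected. Of 9 detected adipocyte markers Ucp1 and Cidea were higher, beside the same 1.09%, with a median of 0.17. Ucp1 was detected only through the transgenic pool, so it entered because it was high there. Among the 8 above background in both pools, Cidea alone was higher, and their median was 0.17. Endothelial markers had 2 of 6 detected, at a median of -0.21.

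None of the detected genes beside Gpx2 on the chromosome passed the rule. Neighbours were taken after the values were seen, as the 4 protein-coding genes on each side in the gene order of GRCm38.p6. All 8 neighbours of Gpx2 were detected, with mean ratios from -0.28 for Fut8 to 0.42 for Ppp1r36, and the adjacent Churc1 and Rab15 stood at 0.050 and -0.071. Around Gstm1 lie other mu-class genes, and Gstm2 at 0.038, Gstm3 at 0.16, Gstm4 at 0.31 and Gstm7 at 0.15 were all within the spread seen for Gstm1. Beside Gsto1, its paralog Gsto2 was at 0.30 ± 0.11.

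**Figure D4:**
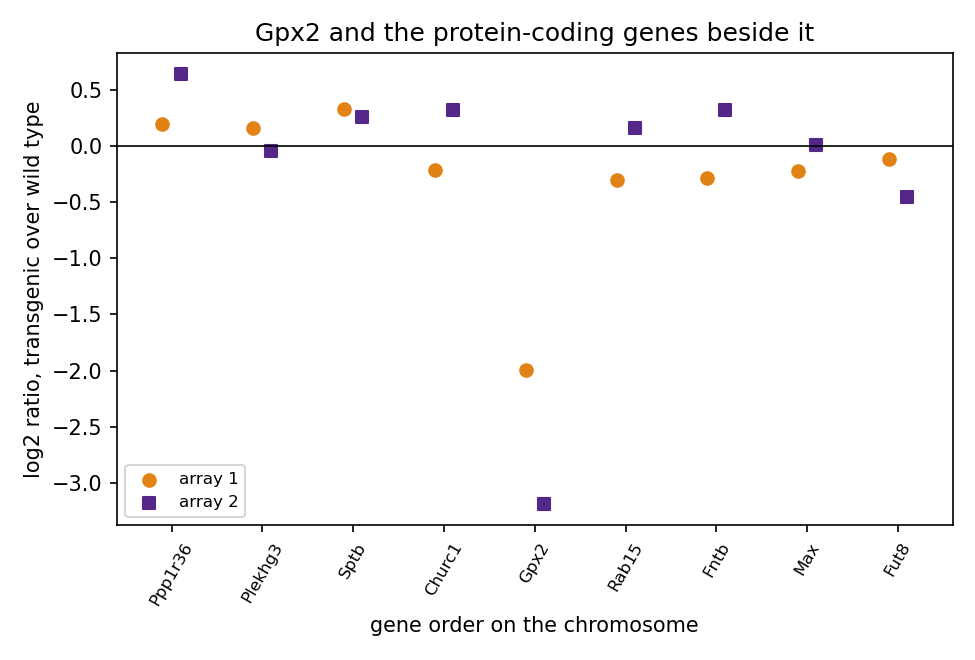
Log2 ratio of transgenic over wild type on array 1 (orange circles) and array 2 (purple squares) for Gpx2 with 4 protein-coding genes on each side, in gene order. Gpx2 at -1.99 and -3.19 lies below all 8 of its neighbours.

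Likeness of pattern was measured here as distance between genes over the loess ratios of the 2 arrays. It includes how far apart a probe's arrays lie. For Gpx2 the loess ratios lay 1.20 apart and the Cy3 and Cy5 ratios 0.15 apart. No relation between genes is read from this distance. By that measure the 3 genes with a symbol nearest to Gpx2 were the invariant chain Cd74, at a distance of 0.11 on the log2 scale, the matrix metalloproteinase Mmp7 at 0.23 and the lysosomal protease Ctss at 0.24. Those nearest to Gsta3 were the transcription factor gene Ets1 at 0.028, Ergic2 at 0.038 and A630001G21Rik at 0.041. For Ets1 and A630001G21Rik at least 1 pool fell short of the background criterion on at least 1 array.

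**Figure D5:**
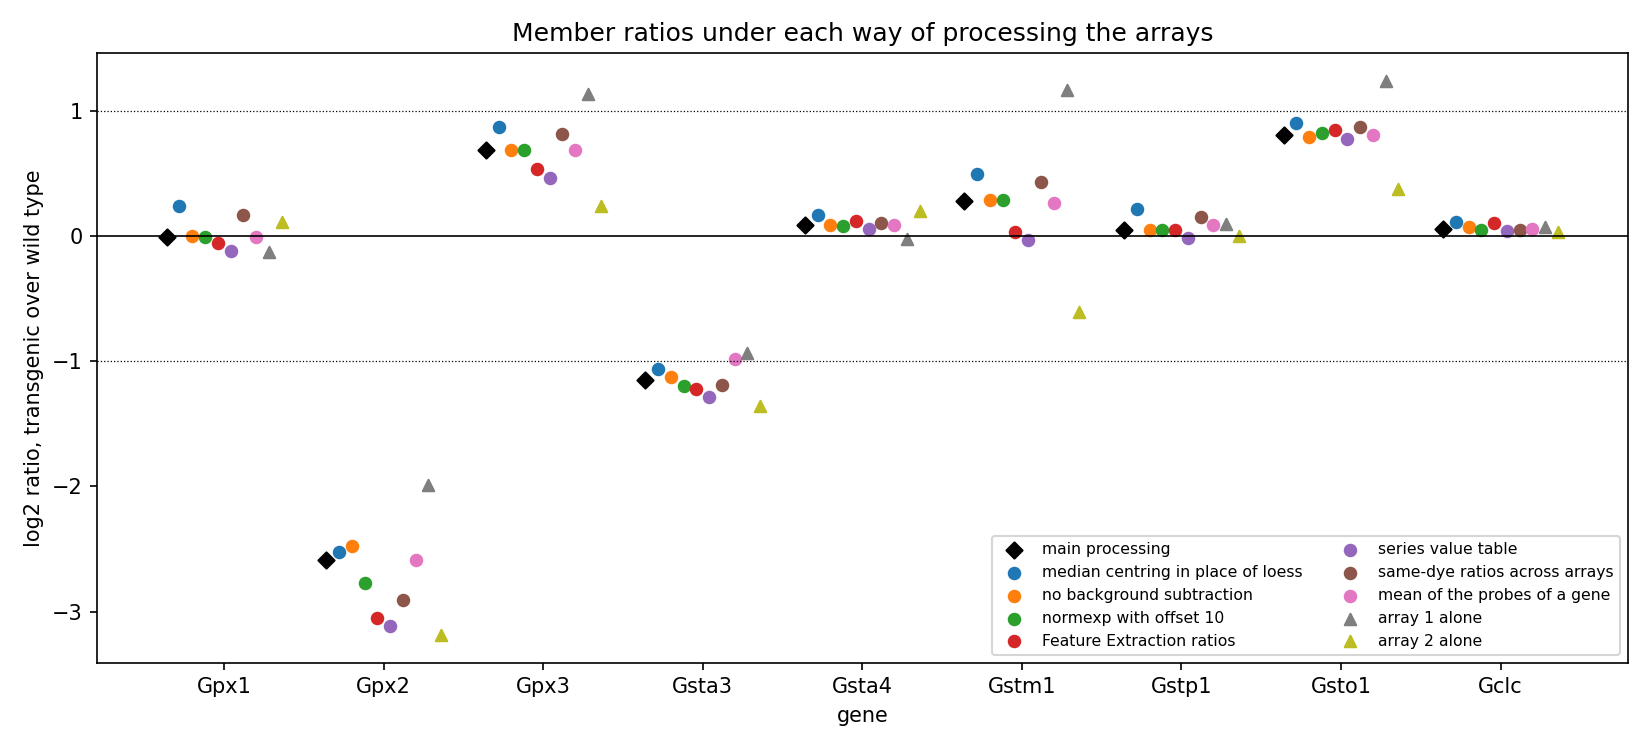
Log2 ratio of transgenic over wild type for the 9 detected members under the main processing (black diamonds) and alternatives. Single arrays are triangles, and dotted lines lie at -1 and 1. The changed detection filters, which left these values as they were, are not drawn. Gpx2 stays between -3.19 and -1.99, Gsta3 between -1.36 and -0.94, and Gstm1 is spread from -0.60 to 1.17.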

How the data were processed

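The authors deposited Agilent Feature Extraction files, and per the file headers version 11.0.1.1 was used with annotation build mm9. The authors deposited median spot and background intensity per dye as scanned, and processed intensity that was background-subtracted and dye-normalized. Per the file headers, the deposited log10 ratio is that of Cy5 over Cy3 in processed signal, and marks flag outliers and signals above background. Per the labels' protocols, 100 ng of Trizol-extracted total RNA was labelled with the Low Input Quick Amp kit. The deposited table of log2 ratios matched Feature Extraction's ratios turned to transgenic over wild type, with a constant offset of -0.08 on array 1 and -0.05 on array 2 and column medians of 0. No source used here states its filter.

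Median signals were corrected with normexp (offset 50) and loess in limma 3.58.1 (R 4.3.3), with control and outlier spots at weight 0. Signals per pool came from Aquantile normalization. The code was tested on simulated data. Spots of a probe were averaged without outliers, and a gene was represented by its brightest detected probe. Symbols came from RefSeq's GRCm38.p6 table by unversioned accession, for 27816 of 41174 probes. Green signals were well above background for 29736 and 30718 spots and red for 18606 and 17185, and no spot was saturated (0). Each array carried both pools, so array and genotype are not confounded. There is 1 pool per genotype, so no test was run. The number of arrays limits the technical precision of each ratio.

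The members and lists were chosen with earlier results of these data known. The genes named are the members, the list genes that passed the rule, the highest and lowest gene of each pathway list, and the 3 genes nearest to each called member. Exceptions are stated, and a few genes that the rule would name are not reported here. Alternatives changed the background correction, normalization, source of ratios, detection filter, probe choice, arrays and fold rule.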

Additional observations from a re-analysis of the deposited data

How the results depend on the processing

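Of 99 values of single members under alternatives, 90 moved by less than their SD or kept their call, 6 moved by more and 3 lost a call, all of Gsta3. Many of the 90 were fixed in advance, so their number does not measure robustness. A single array always lies within the SD of 2 arrays from their mean, also where it gained a call. Changing the detection filter left every member's value as it was, and so did averaging probes where a gene had a single probe. Gpx2 passed under the main processing and each of the 11 alternatives that gave a ratio. The changed detection filters and the averaging of probes left its value at -2.59, so these could not have removed the call. The number of members called lower was 2 in the main processing and 1 under median centring, with all probes of a gene averaged and with 2-fold asked of each array, and it ran from 1 to 2 with single arrays. The number called higher was 0, but 2 (Gpx3 and Gsto1) under a rule of 1.5-fold in the mean, and 0 to 3 with single arrays, the 3 on array 1 being Gpx3, Gstm1 and Gsto1. Gstp1 changed sign in the series' value table (-0.015), and Gpx1 lay between -0.13 and 0.24. Over all genes, 151 were higher and 491 lower. Feature Extraction's ratios gave 309 and 938, the 1.5-fold rule 472 and 1077, and single arrays 271 to 450 and 589 to 599. Median centring gave 99 higher, detection in both pools 267 lower, and the ratios within one dye, which were added after seeing the data, 965 lower. The cause of these changes was not tested. Each genotype had 1 pool, so spread between mice is unknown. Each loess ratio sets both pools against each other on 1 array, but the arrays share the same RNA pools, so no paired test across mice was possible. Fewer spots were above background in Cy5 than in Cy3, which limits what can be said of dim genes.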

Other observations

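Detection differed between the dyes. Of all probes, 9005 were well above background in Cy3 on both arrays, hence in both pools, and in Cy5 on neither, while 3 probes showed the opposite. A rule that asks for 1 pool on both arrays needs Cy5 and leaves all of these out. Of the 18 pathway genes on the array that were not detected, 11 had such a probe, among them the cystine transporter Slc7a11, Gstm6, Gstp3, Mgst2 and Sod3, which were named after their values were seen. Of the Slc7a11 probes, 1 gave loess ratios of 0.31 and 0.52 on array 1 and array 2, and another gave 0.36 and 0.21. Both were short of the background criterion in Cy5 on each array. A further probe, short of it in both dyes, gave 0.30 and -0.22, so no direction is read for Slc7a11.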
